A study of Bos taurus with 20 samples.

Results

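The genes described here are those that the array names with the prefix EIF, the eukaryotic translation initiation factors and a few genes that carry the prefix for other reasons. They were found by taking every non-control probe whose gene name, without its transcript suffix, begins with EIF. This gave 136 of the 61325 probes and 54 of the 22550 genes or transcripts on the array. All 54 symbols were found in the reference table of bovine genes, 51 of them under the same symbol. EIF2C1 and EIF2C2 are older names of the Argonaute genes AGO1 and AGO2, and EIF3C is listed there under the symbol of its copy EIF3CL, so its signal cannot be assigned to 1 of these copies.

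Initiation brings a ribosome, the initiator tRNA and an mRNA together at a start codon. The GTPase eIF2 carries the initiator tRNA and is recharged by the exchange factor eIF2B, which is blocked when a stress kinase phosphorylates the alpha subunit of eIF2. The multi-subunit factor eIF3 holds the small ribosomal subunit and its partners, while eIF4F, made of the cap-binding protein eIF4E, the scaffold eIF4G and the helicase eIF4A, loads the mRNA. Fully grown oocytes store much of their mRNA in a repressed state and translate parts of it during maturation, and control of cap recognition and of the poly(A) tail is a known part of this switch.

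Gene expression was measured in bovine ovarian follicles of 3 to 6 mm with a customized Agilent array and 1 dye. The 20 arrays held 4 samples each of the theca (TH), of the granulosa (GC), of the cumulus cells around the oocyte (CC) and of the oocyte itself, all immature, and of CC taken after 4 h of in vitro maturation (IVM). Ovaries came from slaughtered animals, TH were scraped from the follicle wall, and the number of animals behind a sample was not given in the sources used here, so the p-values measure the spread between these samples. The labels name no genetic change and no drug in any group, and the same amount of total RNA was labelled for each array. A level is therefore a share of the labelled RNA, and less RNA of a gene per cell cannot be told apart from more RNA of other genes.

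All levels below are on a log2 scale on which 0 is the 75th percentile of processed signals on that array, and the level of a gene is the median over its spots. Levels of different genes come from different probes and were not compared with each other. On the 20 arrays, 49.3 to 68.8% of probes were well above background, and both of these limits were oocyte arrays, with oocyte replicate 2 at the lowest value. The summed level of 6 oocyte markers, among them ZP2, ZP3 and GDF9, was 7.96 to 8.37 in the oocyte and -2.49 to 1.59 over TH, GC and CC, with the highest of these in CC, where all 6 were above background on every array. The 4 granulosa and cumulus markers summed to 6.79 to 8.82 in GC and CC and to 1.14 to 1.60 in the oocyte, where CYP19A1 was not above background. The 5 theca markers summed to 9.17 to 9.70 in TH and to 4.66 to 6.84 in GC and CC. The 3 endothelial markers summed to 0.43 to 2.13 in TH and to -5.63 to -3.15 in GC and CC. In the oocyte the endothelial sum was -1.23 to 1.01, with 1 marker above background on all arrays. The part of these other cells in the results was not tested.

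The probes are 60 bases long, and 116 of the 136 sequences of the EIF genes were distinct, with none shared with another gene. Of the 54 genes, 43 had 2 probes, 9 had 4, 1 had 6 and 1 had 8. Sequences are shown for the genes whose result turns on which probe is read, as the array files give them. For EIF4E1B, the germ-line relative of the cap-binding protein, annotated at chr7:39467952-39470752 on UMD 3.1, both probes are given because this gene had the largest difference of all members.
EIF4E1B, probe 1: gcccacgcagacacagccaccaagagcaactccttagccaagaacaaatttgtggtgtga
EIF4E1B, probe 2: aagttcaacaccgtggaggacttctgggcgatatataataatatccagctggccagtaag

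The scaffold gene EIF4G3, at chr2:132097562-132451412, is represented by 4 transcripts, of which EIF4G3-202, EIF4G3-203 and EIF4G3-204 carry the same 2 probe sequences. EIF4G3-201 ends at position 132323961 and has 2 probes of its own, shown by their first 30 bases. The probes of EIF4G3-201 and of the other transcripts gave different results, as did those of EIF4ENIF1 (chr17:72293386-72332007), which encodes the eIF4E transporter.
EIF4G3-201, probe 1: aagagcccagtcccagaaacaccaaatgaa
EIF4G3-201, probe 2: gtgtgtttatgttttagtgcatccagcaaa
EIF4G3-202, probe 1: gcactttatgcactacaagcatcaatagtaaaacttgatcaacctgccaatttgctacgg
EIF4G3-202, probe 2: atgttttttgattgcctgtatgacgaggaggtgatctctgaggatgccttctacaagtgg
EIF4ENIF1, probe 1: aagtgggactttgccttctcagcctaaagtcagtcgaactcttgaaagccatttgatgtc
EIF4ENIF1, probe 2: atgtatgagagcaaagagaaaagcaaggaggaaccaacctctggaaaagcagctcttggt

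The initiation factor genes were called in both directions between the oocyte and the somatic cells. EIF4E1B, EIF2AK1, EIF2B1, EIF1B and the cap-binding protein gene EIF4E were higher in the oocyte, by 1.92 to 8.43. EIF4EBP1, EIF4B and most eIF3 subunit genes were lower, by up to 3.70. EIF4ENIF1 was called higher too, but only 1 of its 2 probes was higher. By the F-test over TH, GC, CC and oocytes (limma, BH-adjusted over all genes), 47 of the 54 genes (87.0%) passed, against 71.3% of all genes. In the contrast of the oocyte with the mean of the 3 somatic cell types, 23 genes (42.6%) were higher, against 32.9% of all genes, and 23 (42.6%) were lower, against 38.3%. A filter on dim genes kept the 17310 genes above background on at least 3 arrays of any cell type. Of these, 90% passed the F-test, 42.5% were higher and 43.4% were lower in the oocyte, close to the shares of the 54 genes. The median difference of the 54 genes was 0.01, and that of all 22550 genes was -0.52. Restricted to 10012 genes that every one of the 16 arrays detected above background, the median was 0.19. Of the 54 genes, 48 were above background on all 16 arrays. The oocyte and somatic arrays did not overlap in 21 of the 23 genes called higher, against 76.8% of all genes called higher, and in 19 of the 23 called lower, against 53.7%. Under the 5 other scalings of the arrays, 21 of the genes called higher and 14 of those called lower kept their call in every one. The 2 others that were higher were EIF2S2 and EIF4EBP2, and the 9 others that were lower were EIF1AX, EIF2A, EIF2B2, EIF3E, EIF4A2, EIF4E3, EIF4G1, EIF4G2 and EIF5A. The split of 23 higher and 23 lower became 25 and 17 with quantile normalization, against 35.2 and 33.1% of all genes. In the deposited log2 table it became 29 and 16, against 34 and 56.1%, so the balance between the directions depended on the scaling.

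**Figure D1:**
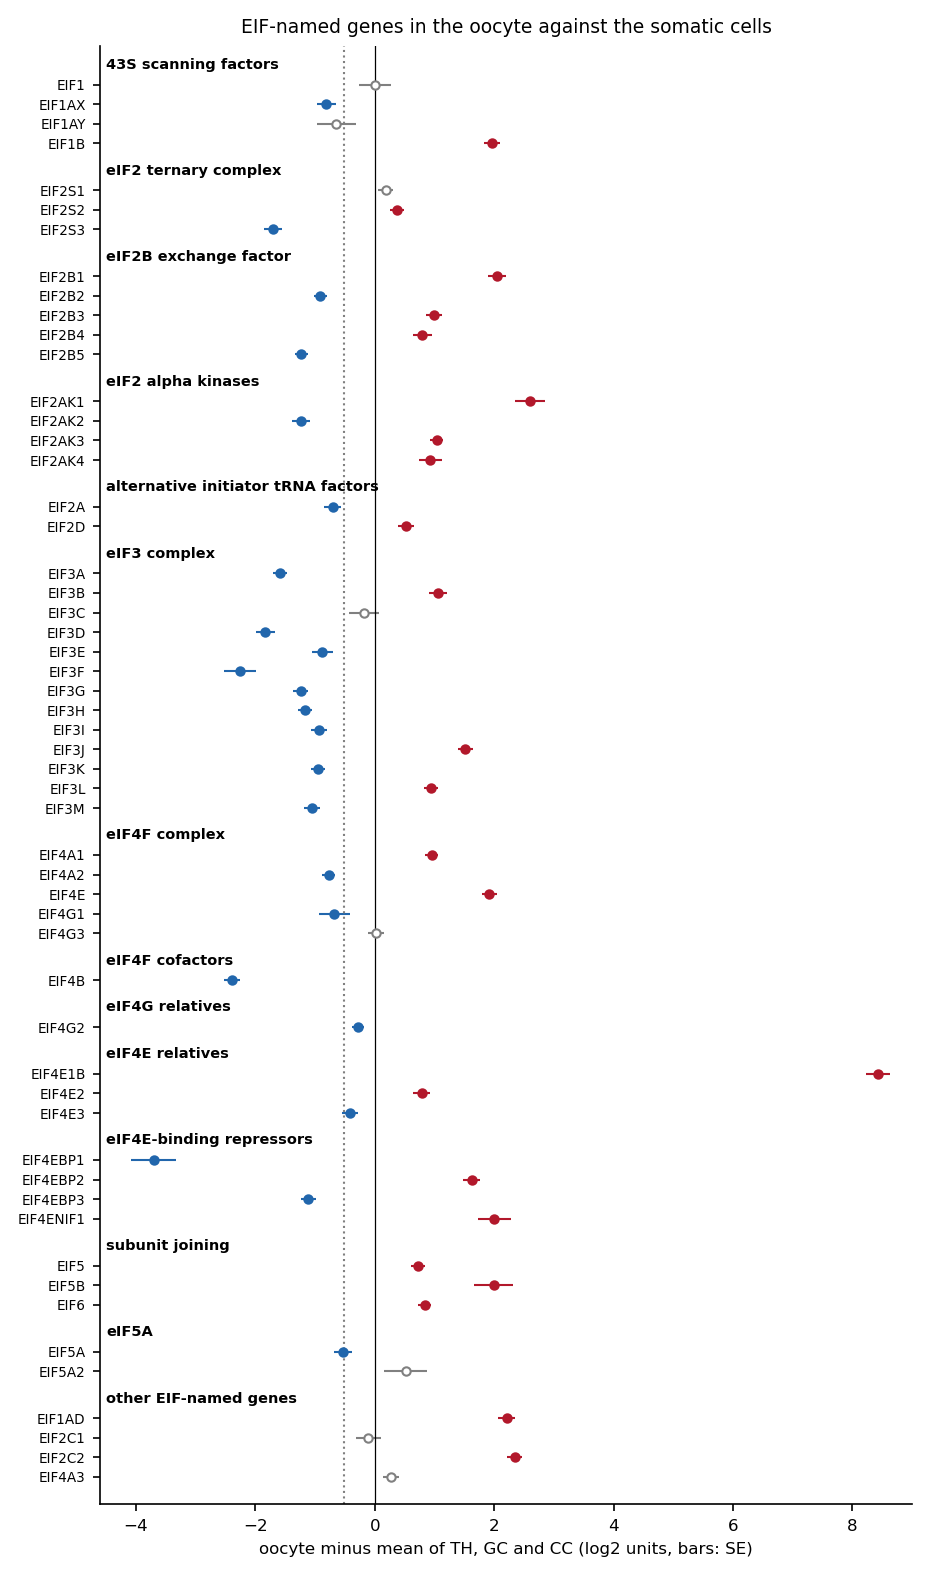
Difference between the oocyte and the mean of TH, GC and CC for the 54 EIF-named genes, by complex, in log2 units with the SE of the fit (4 arrays a group). Filled points passed the adjusted threshold, red higher and blue lower in the oocyte, and open points did not; the dotted line is the median of all genes at -0.52. EIF4E1B stands at 8.43, and 9 of the 13 eIF3 genes lie to the left.

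Of the 4 genes of cap-binding proteins, the oocyte had more EIF4E, EIF4E1B and EIF4E2 mRNA and less EIF4E3 mRNA. EIF4E stood at 2.67, 2.54, 2.65 and 2.58 on the oocyte arrays, and at 0.08 to 1.31 with a median of 0.79 on the 12 somatic arrays. The groups did not overlap, and the difference was 1.92 ± 0.12 (SE), which is 3.79-fold (adjusted p = 7.23e-10). EIF4E1B stood at 2.19, 2.09, 2.19 and 2.35 on the oocyte arrays and at -7.01 to -5.37, with a median of -6.03, on the somatic arrays. All 4 oocyte arrays were above background, against 1 TH, 2 GC and 3 CC arrays. The measured difference was 8.43 ± 0.21 (adjusted p = 1.56e-14), and it was 6.51 in the deposited table and 5.17 with normexp background correction. The gene level of each somatic array was then held no lower than the lowest signal well above background on that array. With this floor, the oocyte mean of the processed signals was 180-fold higher than TH, 151-fold higher than GC and 196-fold higher than CC. The floor was set on the median of both probes and not on each probe, so these folds are not lower bounds.

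Both EIF4E1B probes shown above were higher on all oocyte arrays than on any somatic array. The second was above background on no somatic array and at 0.42 to 0.78 in the oocyte, so its difference has no exact size. The 3 CC arrays above background were so only with the first probe, which stood at -4.07, -5.20, -4.38 and -3.41 in CC and at 3.73 to 3.92 in the oocyte. CC are also the somatic cells with the highest summed level of the oocyte markers, and whether this bears on EIF4E1B was not tested. EIF4E2, which encodes a cap-binding repressor, stood at -0.67, -0.78, -0.71 and -0.61 in the oocyte, above all somatic arrays (-1.77 to -1.06, median -1.55). Its difference was 0.79 ± 0.14 (adjusted p = 1.02e-04). EIF4E3, an atypical relative, stood at -2.76, -3.26, -2.86 and -2.90 in the oocyte and at -2.94 to -2.12, median -2.51, in the somatic cells, so that the groups overlapped. Its difference of -0.41 ± 0.14 passed the threshold (adjusted p = 0.014), but not without oocyte replicate 2, when it was -0.31 (adjusted p = 0.056). It also failed with quantile normalization (-0.26), the array median (-0.24) and the deposited table (-0.04).

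**Figure D2:**
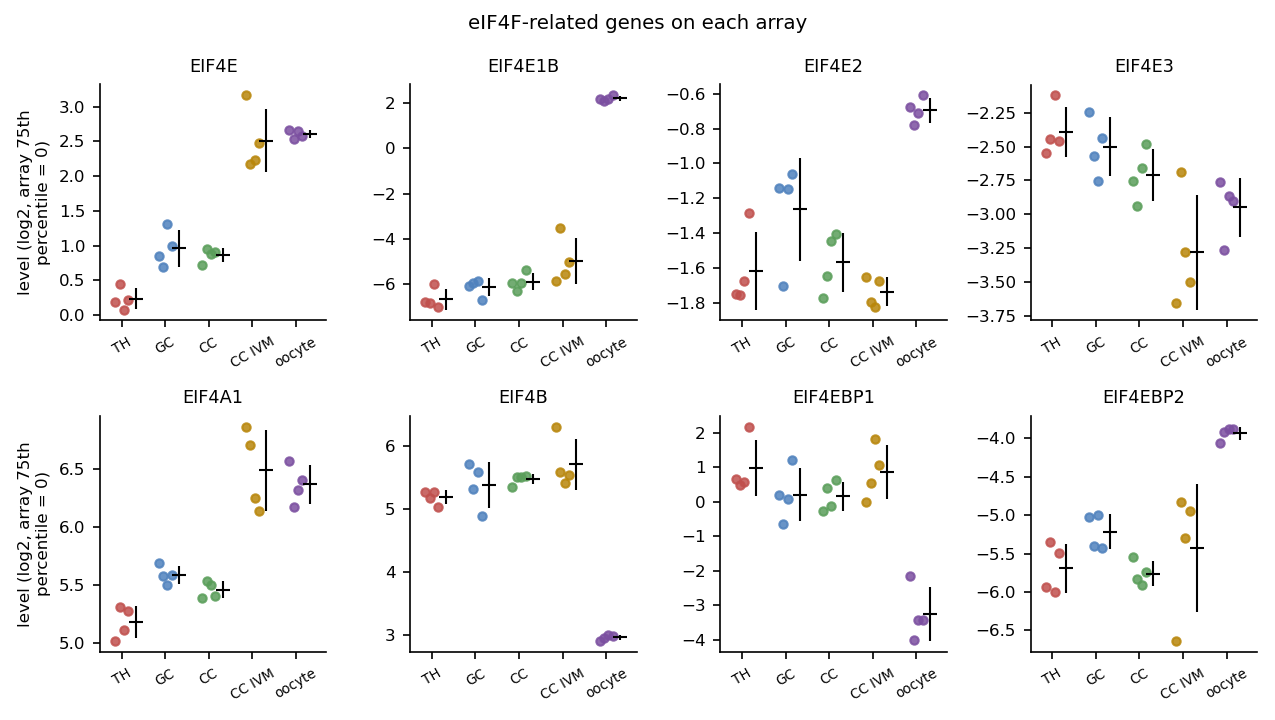
Levels of 8 genes of eIF4F, its relatives, its cofactor and its repressors on each of the 20 arrays, by group, in log2 units with the 75th percentile of an array at 0. Each dot is 1 array and the black bars are the mean and SD of 4 arrays. EIF4E, EIF4E1B, EIF4E2, EIF4A1 and EIF4EBP2 are highest or among the highest in the oocyte, where EIF4B and EIF4EBP1 are lowest.

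The helicase genes of eIF4F moved in opposite directions. EIF4A1 stood at 6.57, 6.18, 6.32 and 6.40 in the oocyte and at 5.02 to 5.69, median 5.45, in the somatic cells, a difference of 0.96 ± 0.11 (adjusted p = 7.89e-07). EIF4A2 stood at 5.13, 4.93, 4.99 and 4.83 in the oocyte and at 5.35 to 6.05, median 5.73, in the somatic cells, a difference of -0.77 ± 0.11 (adjusted p = 1.28e-05). The oocyte arrays were thus all above the somatic ones for the first gene and all below them for the second. The fall of EIF4A2 did not pass with quantile normalization (-0.20) or in the deposited table (-0.13), whereas EIF4A1 passed under each scaling. EIF4B, a cofactor of the eIF4A helicase, stood at 2.91, 2.96, 3.01 and 2.99 in the oocyte and at 4.89 to 5.72, median 5.34, in the somatic cells. It was lower 5.22-fold without overlap (-2.39 ± 0.13, adjusted p = 1.78e-10).

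The scaffold genes differed by less than 1 log2 unit. EIF4G1 stood at -1.86, -2.34, -2.64 and -2.57 in the oocyte and at -2.21 to -0.62, median -1.82, in the somatic cells, with overlap and a difference of -0.68 ± 0.26 (adjusted p = 0.033). This call was lost without oocyte replicate 3 (adjusted p = 0.108) or 4 (0.0954). EIF4G2, which encodes a scaffold without the eIF4E site, stood at 5.53, 5.51, 5.65 and 5.50 in the oocyte and at 5.49 to 6.19, median 5.82, in the somatic cells. Its difference of -0.28 ± 0.11 (adjusted p = 0.0292) turned to 0.86 with quantile normalization and 0.39 in the deposited table, so its direction is not given. EIF4G3 stood at -1.05, -1.05, -0.88 and -0.98 in the oocyte and at -1.45 to -0.74 in the somatic cells, and the difference of 0.02 ± 0.13 did not pass (adjusted p = 0.88).

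The EIF4G3 level is the median over 8 probes, and these did not show the same pattern. The first probe of EIF4G3-201 stood at -0.94, -0.96, -0.79 and -0.89 in the oocyte, at -3.33 to -2.97 in CC, at -4.37 to -3.39 in GC and at -7.00 to -4.46 in TH. The oocyte arrays were above all somatic arrays by 3.23 on average (adjusted p over all probes = 5.72e-07), and the other probe was higher too (adjusted p = 3.10e-07), although it was above background on only 1 TH array, so the size of its difference was not measured against TH. The 6 probes of the longer transcripts differed by -0.25 to -0.17, with none called. Since EIF4G3-201 has probes that no other transcript carries, the oocyte difference of EIF4G3 was seen only with the probes of the shorter annotated transcript. This contrast between the probes was picked out after their values were seen and was not tested.

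**Figure D3:**
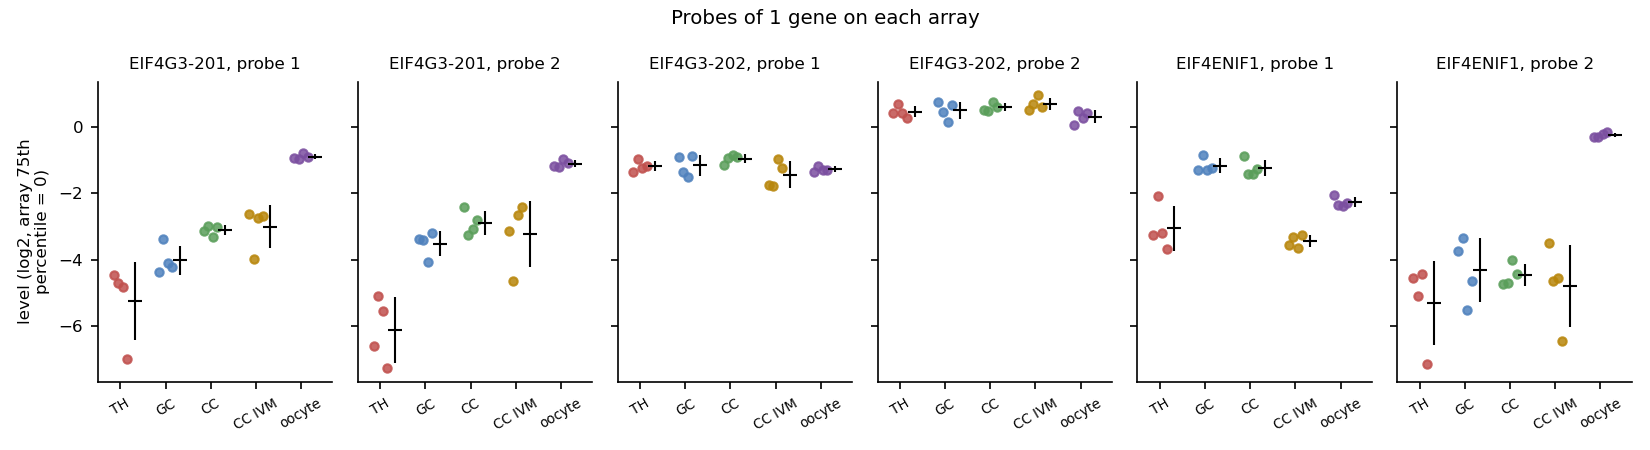
Levels of single probes of EIF4G3 and EIF4ENIF1 on each of the 20 arrays, by group, in log2 units with the 75th percentile of an array at 0. Dots are arrays and black bars the mean and SD of 4 arrays. Both EIF4G3-201 probes and the second EIF4ENIF1 probe are highest in the oocyte, and the EIF4G3-202 probes are level across the groups.

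The genes of proteins that bind eIF4E also divided. EIF4EBP1, whose protein blocks eIF4E until it is phosphorylated downstream of mTOR, had the largest fall of the 54 genes. It stood at -2.14, -4.00, -3.43 and -3.45 in the oocyte and at -0.64 to 2.18, median 0.45, in the somatic cells. The groups did not overlap, and the difference was -3.70 ± 0.38, which is 13.0-fold (adjusted p = 2.89e-07). EIF4EBP3 was lower as well (-1.11 ± 0.13, adjusted p = 8.45e-07). Of its 6 probes, 5 were called lower, with differences of -2.87 to -0.62, and 1 was above background on no array. Its 3 transcripts span different stretches of chromosome 7, with EIF4EBP3-201 ending before EIF4EBP3-203 begins. The gene level pools the probes of all 3, so the size of its fall cannot be assigned to 1 transcript. EIF4EBP2 moved the other way. It stood at -4.06, -3.92, -3.87 and -3.88 in the oocyte, above all somatic arrays (-6.00 to -5.00, median -5.52), with an adjusted p of 4.39e-08. It was dim in the somatic cells, where the spots of its first probe were above background on at most 1 array of a cell type. With somatic arrays held at their floor as for EIF4E1B, the oocyte was 2.52-fold higher than TH, 2.07-fold higher than GC and 2.70-fold higher than CC. These folds are not lower bounds either. With normexp background correction the difference was -0.27 and did not pass.

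EIF4ENIF1 stood at -1.18, -1.32, -1.29 and -1.22 in the oocyte and at -5.42 to -2.09, median -2.99, in the somatic cells, a difference of 2.00 ± 0.28 (adjusted p = 8.88e-06) without overlap. Its probes gave different answers. The second probe stood at -0.30, -0.29, -0.21 and -0.15 in the oocyte and at -7.16 to -3.35 in the somatic cells (adjusted p = 2.15e-07). It was above background on 4 CC but only 2 TH and 2 GC arrays, so the fitted difference of 4.46 is partly against background. The first probe, the brighter on average, stood at -2.38 to -2.06 in the oocyte and differed by -0.45 (adjusted p = 0.0845). The rise of this gene in the oocyte therefore rests on the second probe.

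Genes of the eIF3 complex were mostly lower in the oocyte. Of 13 subunit genes, 9 were called lower (EIF3A, EIF3D, EIF3E, EIF3F, EIF3G, EIF3H, EIF3I, EIF3K and EIF3M), 3 higher (EIF3B, EIF3J and EIF3L) and 1, EIF3C, was not called. Of all genes, 38.3% were lower and 32.9% higher. The median difference of the 13 genes was -0.95, with a range of -2.26 to 1.52. Under the other scalings, 8 or 9 of them were lower and 3 were higher, and their median was -1.17 to -0.30. The shares of all genes under these scalings were 32.1 to 67% lower and 24 to 35.2% higher.

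The largest falls in eIF3 were those of EIF3F, EIF3D and EIF3A, the last of which encodes the scaffold subunit of the complex. EIF3F stood at 1.92, 1.28, 1.54 and 1.49 in the oocyte and at 3.22 to 5.17, median 3.76, in the somatic cells (-2.26 ± 0.27, adjusted p = 1.59e-06). EIF3D, whose protein can itself bind the cap of some mRNAs, stood at 4.73, 4.66, 4.87 and 4.72 in the oocyte and at 6.27 to 7.17, median 6.49, in the somatic cells (-1.83 ± 0.16, adjusted p = 2.92e-08). EIF3A stood at 0.19, 0.82, 0.68 and 0.71 in the oocyte and at 2.05 to 2.34, median 2.19, in the somatic cells (-1.59 ± 0.12, adjusted p = 7.00e-09). In each of these genes every oocyte array was below every somatic array. The other falls were between -1.24 (EIF3G) and -0.88 (EIF3E), and that of EIF3E did not pass with quantile normalization or in the deposited table.

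Against this, EIF3B, another core subunit gene, stood at -0.06, -0.26, -0.33 and -0.14 in the oocyte and at -1.91 to -0.71, median -1.18, in the somatic cells (1.06 ± 0.15, adjusted p = 1.19e-05). Its second probe was above background on only 2 TH and 3 GC arrays, and the probe above background on every array differed by 0.65. Under the other scalings the difference of EIF3B was 0.44 to 1.23. EIF3J, whose protein is only loosely bound to eIF3, was higher by 1.52 ± 0.13 (adjusted p = 2.17e-08). EIF3L, one of the outer subunits, was higher by 0.95 ± 0.11 (adjusted p = 1.72e-06). All 3 had their oocyte arrays above every somatic array. EIF3C stood at a mean of 2.80 ± 0.52 (SD, n = 4) in the oocyte and differed by -0.18 ± 0.25 (adjusted p = 0.506).

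**Figure D4:**
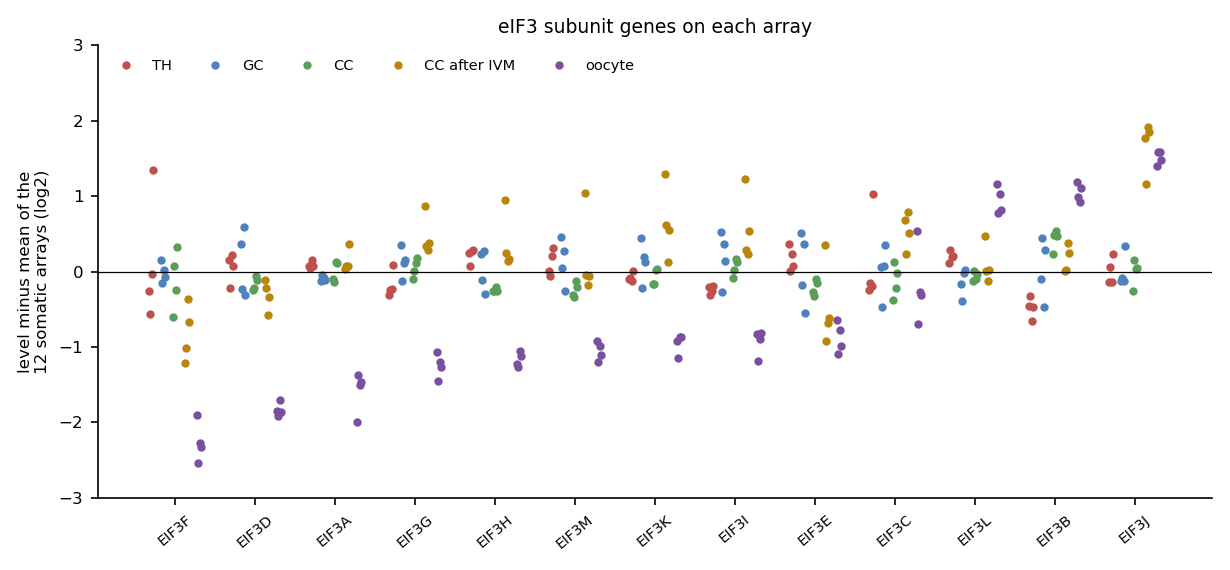
Levels of the 13 eIF3 subunit genes on each of the 20 arrays, in log2 units, minus the mean of the 12 somatic arrays of that gene. Each dot is 1 array, coloured by group, and genes are ordered by their oocyte difference. The oocyte dots lie below the other groups from EIF3F to EIF3I and above the somatic cell types before IVM for EIF3L, EIF3B and EIF3J.

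Genes of the eIF2 arm were split within each complex. Of the 3 eIF2 subunits, EIF2S3, the gamma subunit that binds GTP and the initiator tRNA, stood at 0.87, 0.70, 0.80 and 0.52 in the oocyte and at 1.99 to 2.89, median 2.36, in the somatic cells. It was lower without overlap (-1.71 ± 0.15, adjusted p = 4.13e-08). EIF2S1, the alpha subunit, stood at 2.16, 2.22, 2.29 and 2.20 in the oocyte, within the somatic range of 1.46 to 2.44, and its difference of 0.18 ± 0.12 did not pass (adjusted p = 0.176). EIF2S2, the beta subunit, stood at 4.23, 4.31, 4.37 and 4.28 in the oocyte and at 3.71 to 4.23, median 3.87, in the somatic cells, and was higher by 0.37 ± 0.11 (adjusted p = 0.00823).

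Of the 5 genes of the exchange factor eIF2B, 3 were higher and 2 lower. EIF2B1, which encodes a regulatory subunit, stood at 1.34, 1.38, 1.46 and 1.36 in the oocyte and at -1.04 to -0.19, median -0.64, in the somatic cells (2.05 ± 0.16, adjusted p = 6.89e-09). EIF2B3 (0.99 ± 0.14) and EIF2B4 (0.80 ± 0.16) were higher too. EIF2B5, the catalytic subunit gene, was lower (-1.23 ± 0.11, adjusted p = 7.09e-08), as was EIF2B2 (-0.91 ± 0.10, adjusted p = 9.07e-07). The oocyte arrays lay outside the somatic range for all 5 genes.

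Of the 4 kinases that phosphorylate eIF2 alpha, 3 were higher in the oocyte. EIF2AK1, the heme-regulated kinase, stood at 1.05, 0.68, 1.03 and 0.87 in the oocyte and at -3.06 to -1.11, median -1.43, in the somatic cells (2.60 ± 0.25, adjusted p = 1.25e-07). Its second probe was above background on only 1 TH and 1 GC array, and the probe above background on every array differed by 2.22. With normexp the difference was 1.54. EIF2AK3, the kinase of the unfolded protein response (1.04 ± 0.11), and EIF2AK4, the kinase of amino acid shortage (0.93 ± 0.19), were higher as well. EIF2AK2, activated by double-stranded RNA, was lower (-1.24 ± 0.16), and 1 of its 2 probes was above background on no array. The calls of all 4 kinases held under each scaling.

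The remaining factors were fewer in number. All 3 genes of subunit joining and its control were higher in the oocyte: EIF5, the GTPase activator of eIF2 (0.72 ± 0.12), EIF6, which keeps the ribosomal subunits apart (0.84 ± 0.11), and EIF5B, the GTPase of subunit joining (1.99 ± 0.33). EIF5B stood at 2.29, 2.13 and 2.36 on oocyte replicates 2, 3 and 4 but at -0.0013 on replicate 1, inside the somatic range, and without that array its difference was 2.56. Of the scanning factors, EIF1B stood at 3.17, 3.08, 3.36 and 3.27 in the oocyte and at 0.80 to 1.70, median 1.28, in the somatic cells (1.97 ± 0.13, adjusted p = 1.24e-09). EIF1AX was lower (-0.81 ± 0.16, adjusted p = 2.27e-04), though not with quantile normalization (-0.19). EIF1 was not called (0.01 ± 0.26). Its 4 probes come from 2 loci, on chromosomes 19 and 3. Only 1 of them, from chromosome 3, was called, as lower in the oocyte (-0.47, adjusted p over all probes = 0.00724). EIF1AY, whose probes the array places on chromosome X, was above background on no array. EIF2A and EIF2D, which can deliver the initiator tRNA without eIF2, differed by -0.71 ± 0.15 and 0.53 ± 0.14.

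Of the eIF5A genes, whose proteins carry hypusine, EIF5A differed by -0.54 ± 0.15 (adjusted p = 0.00536), a direction that turned to 0.51 with quantile normalization and 0.11 in the deposited table. EIF5A2 was not called. Among the other EIF-named genes, EIF1AD, which encodes an eIF1A domain protein, stood at 2.86, 2.86, 2.95 and 2.95 in the oocyte and at 0.32 to 1.05, median 0.68, in the somatic cells (2.21 ± 0.14, adjusted p = 1.04e-09). EIF2C2, the Argonaute gene AGO2, stood at 1.39, 1.76, 1.73 and 1.84 in the oocyte and at -1.11 to -0.36, median -0.62, in the somatic cells (2.34 ± 0.12, adjusted p = 7.46e-11). Both were higher without overlap, whereas EIF4A3, a helicase of the exon junction complex, and EIF2C1 were not called.

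Differences among TH, GC and CC were fewer. The F-test over these cell types called 9 of the 54 genes (16.7%), against 34.1% of all genes. The count was 7 to 14 as single arrays were left out (30.4 to 37.1% of all genes), the highest without TH replicate 4. Within the single slides it was 1 and 2 (13 and 16.7% of all genes). It was 16 after a filter on dim genes (47.5% of all genes), 17 with trend and robust fitting (35.7%), 18 with the methods' analysis of variance (34.5%) and 24 with arrayWeights (46.1%). EIF4ENIF1 had the largest change among the 9 genes, standing at -3.91, -3.59, -3.82 and -5.42 in TH, at -2.51, -2.09, -3.40 and -2.93 in GC and at -2.80, -3.05, -2.71 and -2.84 in CC (F-test, adjusted p = 0.00527). TH was lower than GC by 1.45 ± 0.34 (adjusted p = 0.00484) and lower than CC by 1.34 ± 0.34 (adjusted p = 0.00673), and every TH array was below every GC and CC array. The second EIF4ENIF1 probe was above background on only 2 TH and 2 GC arrays, so the size of these differences is partly against background. EIF2C1, the next, stood at -6.17, -5.61, -6.51 and -6.69 in TH, at -4.69, -4.81, -5.08 and -5.66 in GC and at -4.96, -5.59, -5.11 and -5.54 in CC (F-test, adjusted p = 0.00467). These levels lie at background, since all 4 TH levels were below the lowest signal well above background on their arrays and only 1 of its 4 spots was above background on 3 TH arrays, so the size of this change was not measured.

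The other genes that differed among the somatic cells were mostly lowest in TH. EIF3B stood at -1.71, -1.58, -1.91 and -1.72 in TH, at -1.35, -0.80, -1.73 and -0.96 in GC and at -1.02, -0.77, -0.71 and -0.78 in CC, with CC above TH by 0.91 ± 0.19 (adjusted p = 0.00126). Its second probe was above background on only 2 TH and 3 GC arrays. CC were also above TH in EIF2B2 (0.88 ± 0.13), EIF2S1 (0.73 ± 0.15), EIF4E (0.63 ± 0.15), EIF2AK3 (0.64 ± 0.14) and EIF4EBP3 (0.60 ± 0.15). The EIF4EBP3 level pools the probes of its 3 transcripts. EIF4E stood at 0.20, 0.44, 0.08 and 0.21 in TH, at 0.85, 0.69, 1.31 and 1.00 in GC and at 0.73, 0.95, 0.87 and 0.91 in CC, so the TH arrays were all below the others. EIF2AK3 was the only one of the 9 called higher in CC than in GC (0.66 ± 0.14, adjusted p = 0.00584). EIF4EBP2 passed the F-test (adjusted p = 0.0423) but no pair of its cell types did, and the F-test failed with the replicate block (adjusted p = 0.0761). TH are also the somatic samples with the highest endothelial markers and with the blood marker PTPRC above background, and the part of such cells in these differences was not tested.

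After 4 h of IVM, the largest rises in CC among the initiation factor mRNAs were those of EIF2S2, EIF1B, EIF6, EIF3J and EIF4E, by 1.65 to 2.25, and the Argonaute mRNA EIF2C2 rose by 3.34. Of the 54 genes, 20 (37.0%) were higher than in CC before IVM, against 30.3% of all genes, and 3 (5.56%) were lower, against 15.5%. EIF1AY is among the 20 but was above background on no array, which leaves 19 with a measured signal. The groups did not overlap in these 19 and in 2 of the 3 lower genes, against 87.4 and 89.1% of all genes called in the same direction. The median difference was 0.43 for the 54 genes and 0.37 for all genes, and 0.05 for the 11891 genes detected on each of the 8 arrays. Of the 54 genes, 28 were above the median of all genes and 26 below it.

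The scaling mattered for this comparison. With quantile normalization the median of all genes was 0.01, and 13 members were higher and 8 lower, against 12.4 and 16.3% of all genes. In the deposited values 18 were higher and 16 lower, against 43.1 and 22.4% of all genes. Of the 20 rises, 13 were called under each of the 5 other scalings, as were the 3 falls. The 4 IVM arrays lay on a slide of their own, while the CC arrays were spread over the 2 slides that also held the other cell types, so slide and IVM cannot be told apart. With the slide as a random block, 28 members were higher and 8 lower, against 45.8 and 22.1% of all genes. This block cannot remove a slide difference from the comparison, since no slide held both groups.

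**Figure D5:**
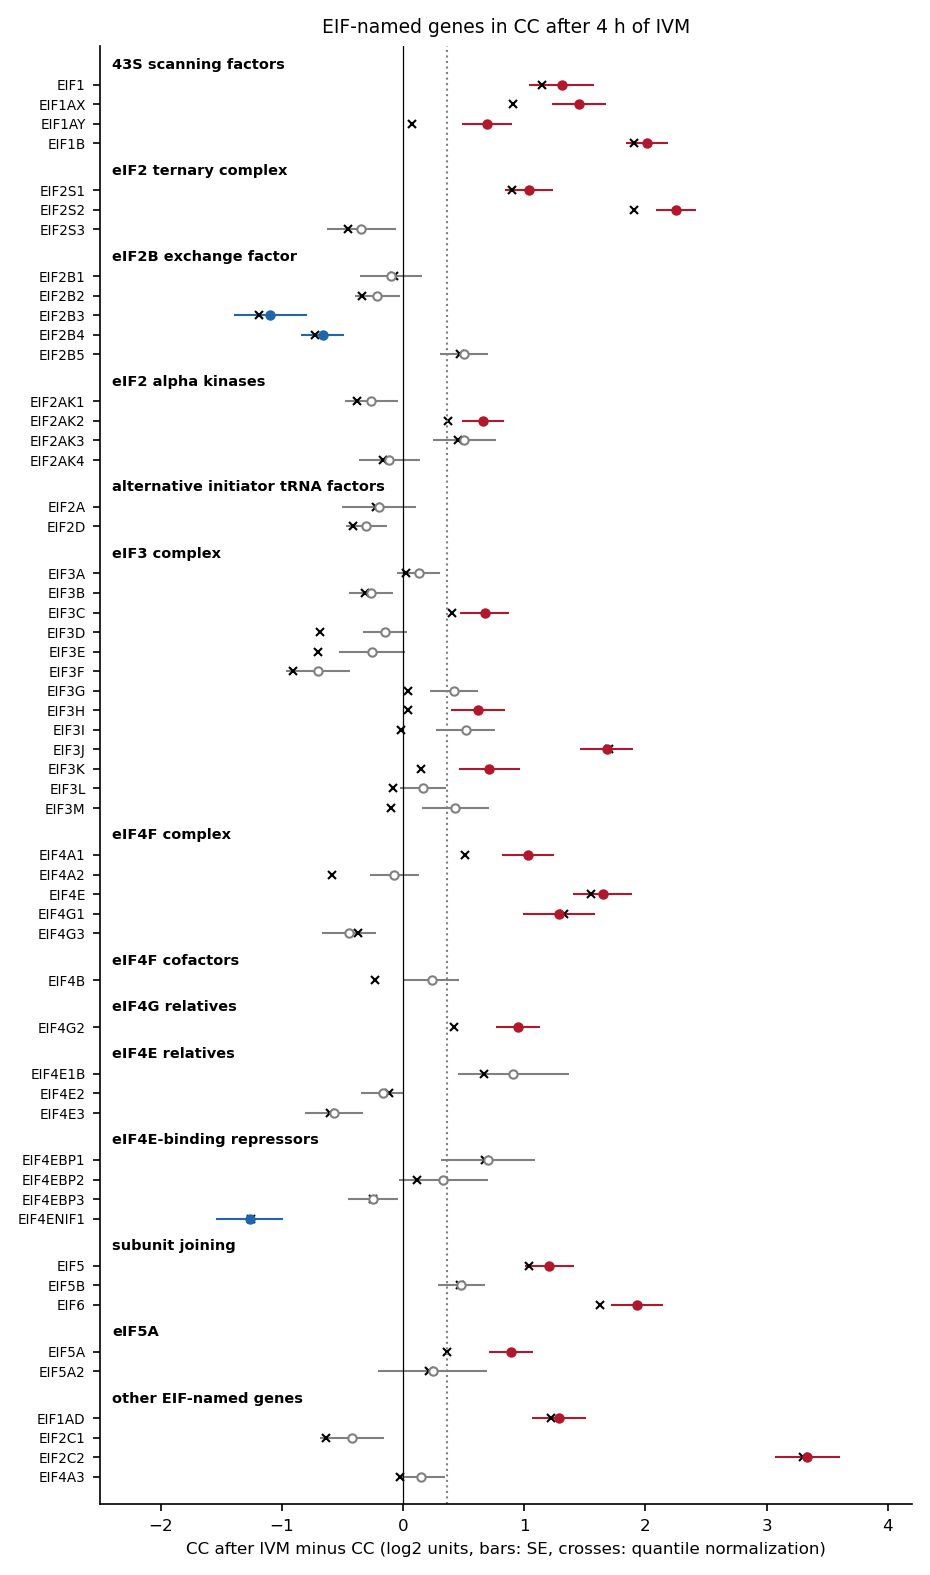
Difference between CC after 4 h of IVM and CC for the 54 EIF-named genes, by complex, in log2 units with the SE of the fit (4 arrays a group). Filled points passed the adjusted threshold, red higher and blue lower after IVM; crosses are the same difference with quantile normalization, and the dotted line is the median of all genes at 0.37. EIF2C2 stands at 3.34, and the crosses of many eIF3 genes lie near 0.

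EIF2C2 rose most. It stood at -0.51, -0.47, -0.62 and -0.50 in CC and at 2.06, 3.37, 2.79 and 3.01 after IVM, a rise of 3.34 ± 0.27, or 10.1-fold (adjusted p = 2.38e-05). EIF2S2, the beta subunit of eIF2, stood at 3.79, 3.86, 3.89 and 3.82 in CC and at 6.23, 6.11, 5.95 and 6.10 after IVM (2.25 ± 0.17, 4.77-fold, adjusted p = 1.45e-05). EIF1B stood at 1.06, 1.31, 1.18 and 1.35 in CC and at 3.08, 3.36, 3.20 and 3.33 after IVM (2.01 ± 0.17, adjusted p = 3.44e-05). The groups were far apart in all 3, and all 3 were called under each scaling. HAS2, a marker of maturing CC, was measured on the same arrays at -5.56 in CC and 2.20 after IVM. Of 4 listed markers of such cells, 2 were measured, HAS2 among them. Their summed level was -1.345 to -0.189 in CC and 2.107 to 2.837 after IVM.

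The summed level of the 3 blood markers was -1.16 to -0.05 after IVM and -3.57 to -2.25 in CC, with PTPRC above background in neither, and its part was not tested.

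In the eIF2 complex EIF2S1 rose too, from 2.34, 2.44, 2.39 and 2.27 to 3.81, 3.29, 3.15 and 3.36 (1.04 ± 0.20, adjusted p = 0.003), while EIF2S3 was not called (-0.35 ± 0.28). All 4 scanning factor genes were called higher, EIF1AY among them, with EIF1 at 1.31 ± 0.27 and EIF1AX at 1.45 ± 0.22. EIF6 rose by 1.93 ± 0.22 (adjusted p = 1.49e-04) and EIF5 by 1.21 ± 0.20 (adjusted p = 0.00156), and EIF5B was not called (0.48 ± 0.19). EIF5A (0.89 ± 0.18), which lost its call with quantile normalization, and EIF1AD (1.29 ± 0.22) rose as well.

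In eIF4F, 3 of 5 genes rose and none fell. EIF4E stood at 0.73, 0.95, 0.87 and 0.91 in CC and at 3.16, 2.17, 2.24 and 2.48 after IVM (1.65 ± 0.24, 3.13-fold, adjusted p = 7.28e-04). EIF4G1 stood at -1.81, -1.16, -1.67 and -1.83 in CC and at 0.02, -1.01, 0.23 and -0.56 after IVM (1.29 ± 0.30, adjusted p = 0.00868). EIF4A1 stood at 5.39, 5.54, 5.50 and 5.41 in CC and at 6.86, 6.71, 6.25 and 6.14 after IVM (1.03 ± 0.21, adjusted p = 0.00477). No array after IVM overlapped the CC arrays in these genes. EIF4A2 (-0.07 ± 0.20) and EIF4G3 (-0.45 ± 0.22) were not called, although EIF4A2 was called lower with quantile normalization (-0.59) and in the deposited table (-0.54), and EIF4G3 in the deposited table (-0.69). EIF4G2 stood at 5.49, 5.73, 5.60 and 5.84 in CC and at 6.69, 6.79, 6.41 and 6.55 after IVM (0.95 ± 0.18, adjusted p = 0.00335), a rise of 0.42 that did not pass with quantile normalization.

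The eIF4E relatives and repressors mostly did not pass. EIF4E1B stood at -5.94, -6.29, -5.91 and -5.37 in CC and at -5.83, -3.53, -5.54 and -5.00 after IVM, with 3 and 2 arrays above background, and was not called (adjusted p = 0.127). Its second probe alone passed (1.89, adjusted p = 0.0352), with 1 IVM array, replicate 2, above background. EIF4E2 (-0.17 ± 0.18), EIF4E3 (-0.57 ± 0.24), EIF4EBP1 (0.70 ± 0.39) and EIF4EBP2 (0.33 ± 0.37) were not called either. EIF4ENIF1 fell from -2.80, -3.05, -2.71 and -2.84 to -3.52, -3.99, -4.10 and -4.86 (-1.27 ± 0.28, adjusted p = 0.00634). This fall rests on the first probe (-2.20, adjusted p = 1.10e-04), since the second differed by -0.33 and was not called.

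Among the eIF3 genes, EIF3J rose by 1.68 ± 0.22 (adjusted p = 3.75e-04) under each scaling. EIF3C, EIF3H and EIF3K were called higher by 0.62 to 0.71, but lost their calls with quantile normalization and when single arrays were left out, and the 9 other subunits were not called. Of these, EIF3F (-0.70 ± 0.27, adjusted p = 0.0546) was called lower under 4 of the 5 other scalings, by -1.12 to -0.77. EIF3A stood at 2.09, 2.05, 2.31 and 2.29 in CC and at 2.21, 2.25, 2.25 and 2.55 after IVM. EIF3B stood at -1.02, -0.77, -0.71 and -0.78 in CC and at -1.25 to -0.87 after IVM, and its probes differed in direction, by -0.83 (adjusted p = 0.018) and 0.30 (not called). With quantile normalization 1 eIF3 gene was higher and 3 were lower, and 1 was higher and 5 were lower in the deposited values.

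The 2 other falls after IVM were in the exchange factor eIF2B. EIF2B4 stood at 0.71, 0.79, 0.92 and 1.01 in CC and at 0.44, 0.11, 0.03 and 0.20 after IVM (-0.66 ± 0.18, adjusted p = 0.0177), without overlap. EIF2B3 stood at 1.72, 1.85, 2.06 and 2.05 in CC and at 1.73, 0.78, 0.36 and 0.42 after IVM (-1.10 ± 0.30, adjusted p = 0.0186), with 1 IVM array among those of CC. These calls were lost without CC replicate 3 (EIF2B4, adjusted p = 0.0539) and without IVM replicate 4 (EIF2B3, adjusted p = 0.0505). Of the kinases, only EIF2AK2 was called higher (0.66 ± 0.17), a call lost with quantile normalization.

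Other genes of translation and its control were read from 3 lists. Of 19 measured genes of poly(A)-binding and cap-linked partners, 10 were higher and 6 lower in the oocyte, against 32.9 and 38.3% of all genes. TACC3, related to maskin, a frog protein that binds eIF4E, was higher by 6.01 ± 0.31, the poly(A)-binding protein gene PABPC1L by 4.82 ± 0.22, PAIP1, which joins that protein to eIF4A, by 3.87 ± 0.12 and CPEB4, a regulator of poly(A) tail length, by 3.29 ± 0.18. Of 18 genes of signalling and stress control, 6 were higher and 6 lower, against 32.9 and 38.3% of all genes. MKNK1, whose kinase phosphorylates eIF4E, was higher by 4.13 ± 0.13, PPP1R15A, a subunit of the eIF2 alpha phosphatase, by 2.74 ± 0.39 and DDIT3 by 2.04 ± 0.32, while the S6 kinase gene RPS6KB2 was lower (-2.64 ± 0.13). PPP1R15A ranged widely in CC, from -0.11 to 2.91.

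Of 11 measured elongation and termination factors, 2 were higher and 5 lower in the oocyte, against 32.9 and 38.3% of all genes. EEF1G (-3.58 ± 0.18), EEF1A1 (-2.65 ± 0.19) and EEF2 (-2.59 ± 0.12), all of elongation, were lower, and EEF2K, the kinase that inhibits eEF2, was higher by 2.63 ± 0.13. The median oocyte differences of the 3 lists were 0.62, 0.07 and -0.51, and that of all genes was -0.52. After IVM, 7, 6 and 5 genes of these lists rose and 3, 4 and 2 fell, against 30.3 and 15.5% of all genes.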

How the data were processed

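The authors deposited, for each of the 20 arrays, the spot table of Agilent Feature Extraction 10.7.3.1 (probes annotated on UMD 3.1), holding an intensity per spot as mean, median and background pixel signals and as a processed signal after background subtraction, not normalized between arrays. They also deposited log2 values in a table. These equalled log2 of the median signal minus each array's median, within 5.04e-09, so background is not subtracted and the median of each column is 0.

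Here, spots marked as outliers were dropped, as were controls, and log2 processed signals were scaled by subtracting, on each array, their 75th percentile over 61325 non-control probes. A gene's level was the median of its spots. limma 3.58.1 (lmFit and eBayes, R 4.3.3) was fitted to the 16 arrays of the 4 immature cell types, and to the 8 arrays of CC and CC after IVM. P-values were BH-adjusted over all 22550 genes, with a threshold of 0.05. The fits were tested on simulated data. The number of arrays limits the precision.

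Groups came from the sample titles. Every member was reported within its complex. Values of each array were given for the 6 largest rises and 6 largest falls in the oocyte among called genes without overlap, the 3 largest somatic changes, the 3 largest rises and falls after IVM without overlap, and 14 genes of eIF4F, its relatives and repressors, eIF2 and eIF3 (EIF4E, EIF4E1B, EIF4E2, EIF4E3, EIF4G1, EIF4G2, EIF4G3, EIF4A1, EIF4A2, EIF4EBP1, EIF4EBP2, EIF2S1, EIF3A and EIF3B). EIF2B3, EIF5B and single probes were added after their values were seen. Of the other lists, up to 4 called genes with the largest oocyte contrast were named. The members and lists were chosen with earlier results of these data known. Alternatives were other scalings, background corrections, probe summaries, filters, blocks, weights and left-out arrays. Replicate numbers came from the titles, and same-numbered samples deviated together in TH and GC (correlations 0.126 to 0.373 in 4 pairs) but not in every pair of the other groups, so the replicate block was an alternative. Slides were read from the file headers. Tables and figures used Python 3.11.15, pandas 2.3.3, numpy 2.4.6 and matplotlib 3.10.9.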

Additional observations from a re-analysis of the deposited data

Results flagged for a closer look

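Among the 54 genes and 5 groups, 21 of 270 groups (7.78%) had 1 array far from the other 3, by Dixon's test of the gap to the nearest array against the range of the group. Chance gives about 1 in 20 such groups. The widest was EIF5B in the oocyte, where replicate 1 stood at -0.0013 and the nearest array at 2.13.

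TH replicate 4 stood apart in 3 genes, at 1.23 for EIF2B4, 4.02 for EIF3C and 2.18 for EIF4EBP1, each above the other TH arrays. TH replicate 2 stood below the others for EIF3H (6.25). GC replicate 4 was the highest for EIF2AK3 (0.081), EIF3J (-0.794) and EIF5A (6.54), and GC replicate 2 the lowest for EIF4E2 (-1.70).

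CC replicate 1 was the lowest for EIF1AX (5.55) and EIF4B (5.36), and CC replicate 3 the highest for EIF3H (5.98). After IVM, replicate 1 was the highest for EIF3G (5.68), EIF3H (7.13), EIF3M (6.98) and EIF4A2 (6.37). Replicate 2 was the highest for EIF5A (7.13), replicate 3 the lowest for EIF1AY (-7.08), which was above background on no array, and replicate 4 the highest for EIF2AK3 (1.85) and EIF3A (2.55). Oocyte replicate 2, the array with the fewest probes above background, was the lowest of its group for EIF2B4 (1.34).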

How the results depend on the processing

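The oocyte contrast called 22 to 29 members higher and 16 to 24 lower under the other scalings. Over all genes these shares were 24 to 35.2% and 32.1 to 67%. The IVM count of 20 higher became 13 with quantile normalization, against 12.4% of all genes. That of 3 lower became 8 there (16.3% of all genes), 5 with the percentile over detected probes (17.7%) and 5 with normexp (13.1%). It became 16 in the deposited values (22.4%), 8 with the slide as a random block (22.1%), and 1 where every probe had to pass. That block cannot separate slide from IVM. The F-test over cell types called 31 within slide 1, against 54.7% of all genes. The somatic F-test called 9 members in the report. It called 14 with quantile normalization (38.8% of all genes), with the percentile over detected probes (33.8%) and with the brightest probe (36.3%). It called 16 after a filter on dim genes (47.5%), 1 within slide 1 (13%) and 2 within slide 2 (16.7%). The count was 24 with arrayWeights (46.1%), 17 with trend and robust fitting (35.7%) and 18 with the methods' analysis of variance (34.5%). Causes were not tested.

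Leaving out single arrays, the F-test called 44 to 48 members, the somatic F-test 7 to 14 (the highest without TH replicate 4, the lowest without CC replicate 4), the oocyte contrast 23 to 24 higher and 21 to 23 lower, and the IVM contrast 16 to 21 higher and 2 to 5 lower (5 without IVM replicate 3, 2 without CC replicate 3). Over all genes, the F-test called 68.5 to 88.1% and the somatic F-test 30.4 to 37.1% in these fits. Without oocyte replicate 2, an alternative added after the data were seen, 24 members were higher and 22 lower in the oocyte. Directions turned for EIF4G2 in the oocyte (0.86 with quantile normalization, 0.39 in the deposited values), EIF5A (0.51 and 0.11), EIF4EBP2 (-0.27 with normexp), EIF4ENIF1 (-0.45 with the brightest probe) and, after IVM, EIF2C1 (0.49 with normexp, not called in the report). Other members not called in the report changed sign too. EIF3L after IVM was 0.16 in the report and was called lower in the deposited values (-0.34). EIF3C in the oocyte was -0.18 in the report and 0.41 with quantile normalization.

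Same-numbered deviations exceeded a correlation of 0.1 in all 4 pairs of TH with GC and in no other pair of groups throughout (-0.20 to 0.23), and the numbers also follow the slides. With the replicate block, the somatic F-test called 10 members, against 34.7% of all genes. GC against TH called 7 in place of 9 (lost: EIF1B, EIF2B5 and EIF4A1, gained: EIF3B). In the oocyte 24 members were higher and 23 lower, against 33.1 and 38.8% of all genes. After IVM 15 were higher and 2 lower, against 18.4 and 12.9% of all genes. Signal over background limits EIF4E1B, EIF2AK1, EIF3B, EIF4ENIF1, EIF4EBP2, EIF2C1, EIF5A2, EIF2AK2 and EIF1AY.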
